A study of Caenorhabditis elegans with 6 samples.

Results

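The genes described here encode proteins of the eggshell (perm-2, perm-4 and cpg-1), of fertilization and egg activation (egg-1, egg-2, egg-3 and egg-4), and the yolk receptor of the oocyte (rme-2). These 8 genes were chosen by name from the 5792 genes of the deposited table, with earlier results of these data known. The samples were 3 of TGQ animals, for which the labels give TGQ as the strain, and 3 of WT animals, for which they give strain SJ4100, a strain name known for a GFP reporter under the promoter of the mitochondrial chaperone gene hsp-6. The labels state neither the meaning of TGQ, nor the derivation of the TGQ animals, nor whether the reporter is present in them. Animals of both groups were raised from hatching at 20 °C on OP50, a strain of Escherichia coli used as food, and whole worms were collected at L4, the last larval stage. Polyadenylated RNA was sequenced. The project's title names inherited elevation of mitochondrial DNA, the mitochondrial unfolded protein response and aging, and the comparison asks how expression in TGQ animals differs from that in WT animals.

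A hermaphrodite worm makes sperm during the L4 stage and then turns to making oocytes, so transcripts of growing oocytes build up towards adulthood. Growing oocytes take up yolk lipoproteins from the body cavity through the receptor RME-2 and load the proteins from which the eggshell is later built. At fertilization the oocyte surface proteins EGG-1 and EGG-2 are needed for sperm entry, and the resulting egg activation is coordinated by a cortical complex of EGG-3, EGG-4 and EGG-5 with the kinase MBK-2. The eggshell is laid down in layers, an outer vitelline layer, a chitin layer and a proteoglycan layer, with a permeability barrier inside.

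The summed signal of the table was between 282762 and 293887 per TGQ sample and between 327792 and 349508 per WT sample. In log2(signal + 1), correlations over genes were 0.99 to 0.994 within TGQ, 0.988 to 0.995 within WT and 0.883 to 0.928 between the groups. No gene in the authors' deposited table has an adjusted p-value above 0.0499, so it holds genes already selected for a difference between these same samples, and counts below describe selected genes. Separate cultures are not mentioned in the labels, so the p-values rest on a spread between replicates that may be technical. The signal is the authors' normalized expression value with no unit named, so the sequencing depth behind it is unknown and levels of different genes are not compared.

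All 8 genes were lower in TGQ animals, and each passed the test. The test was limma on log2(signal + 1) over the 5540 genes with a signal of at least 1 in at least 3 samples, and a gene was called at a Benjamini-Hochberg adjusted p under 0.05. Of all genes tested, 44.6% were called lower and 45.6% higher. All 8 were called lower with a log2 change of -1 or less, as were 13.1% of all genes tested, and in all 8 every TGQ sample lay below every WT sample, as in 47.2% of all genes tested. The median log2 change of the 8 genes was -1.85, against -0.22 for all genes tested. The summed signal of the 8 genes was 167 ± 47.7 in TGQ and 874 ± 135 in WT (SD, n = 3 each). In RNA of whole animals, fewer oocytes and less RNA per oocyte cannot be told apart.

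**Figure D1:**
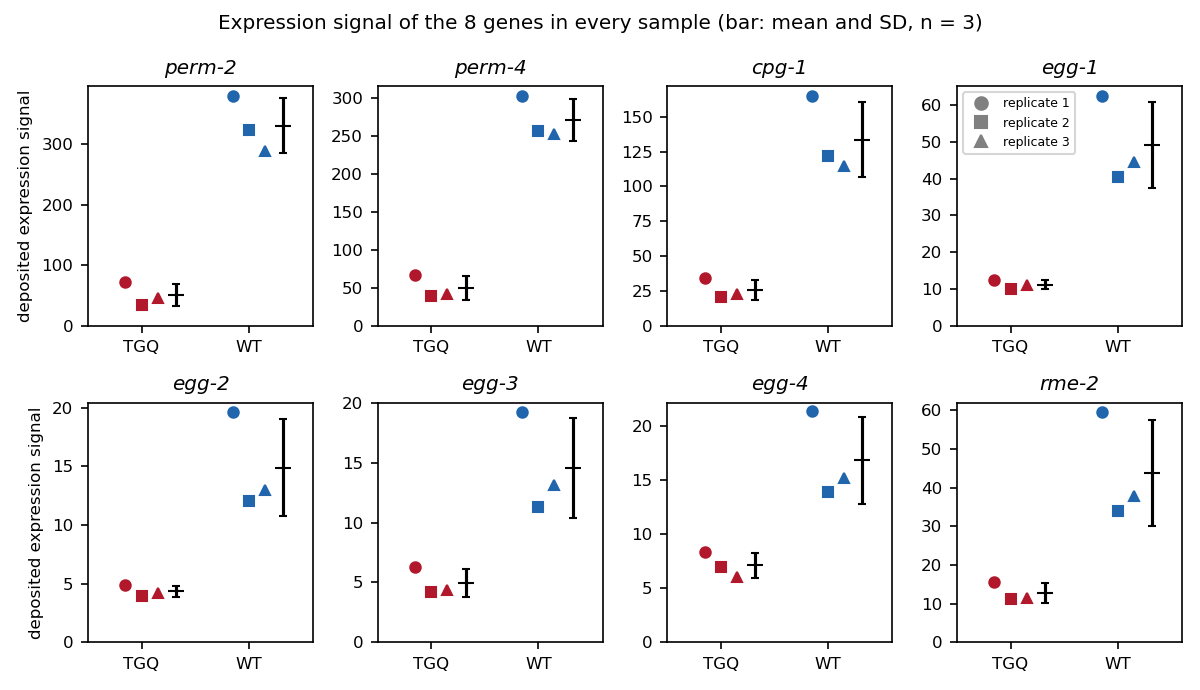
Deposited expression signal (vertical axis, linear, from 0, unit not named by the authors) of each of the 8 genes in 3 TGQ samples (red) and 3 WT samples (blue); symbols mark the replicate number, and the black bars give the mean and SD (n = 3). In every panel the 3 TGQ samples lie below the 3 WT samples, and replicate 1 is the highest of its group.

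The eggshell genes showed the largest falls. The gene perm-2 (WBGene00016636), whose product is a protein of the vitelline layer needed for a permeability barrier that works, had signals of 71.8, 35.1 and 46.6 in TGQ replicates 1 to 3, against 379, 324 and 289 in WT. The highest TGQ sample was far below the lowest WT sample. The TGQ mean of perm-2 was 0.155 times the WT mean, a log2 change of -2.72 (SE 0.22, limma adjusted p = 1.3e-05), and it ranked 62 from the lowest of the 5540 changes. The gene perm-4 (WBGene00016638), whose product works in the same layer, had signals of 67.5, 39.8 and 41.7 in TGQ, against 302, 256 and 253 in WT. These groups were also widely apart, with a log2 change of -2.46 (SE 0.18, limma adjusted p = 8.44e-06). The gene cpg-1 (WBGene00000465) encodes a chondroitin proteoglycan that binds chitin and belongs to the inner proteoglycan layer. Its signals were 34.3, 20.6 and 22.7 in TGQ, against 165, 122 and 115 in WT, again with the highest TGQ sample far below the lowest WT sample. The log2 change of cpg-1 was -2.34 (SE 0.20, limma adjusted p = 1.65e-05).

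The oocyte surface genes of fertilization followed. EGG-1 and EGG-2 are related membrane proteins with low-density lipoprotein receptor class A repeats, which the annotation in the deposited table also lists for both genes. The gene egg-1 (WBGene00015083) had signals of 12.4, 9.99 and 11.13 in TGQ, against 62.5, 40.3 and 44.5 in WT. The TGQ samples were close together, with an SD of 1.19, and all lay below the WT samples. The log2 change of egg-1 was -2.02 (SE 0.17, limma adjusted p = 1.52e-05). The gene egg-2 (WBGene00019811) had signals of 4.87, 3.93 and 4.24 in TGQ, against 19.7, 12.1 and 13 in WT. These groups did not overlap either, and the log2 change was -1.55 (SE 0.18, limma adjusted p = 0.000108).

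The egg activation genes had the smallest changes of the 8. EGG-3 and EGG-4 resemble protein tyrosine phosphatases but are thought to lack phosphatase activity. EGG-3 holds MBK-2 and chitin synthase at the oocyte cortex, and EGG-4 holds MBK-2 inactive until the egg is activated. The gene egg-3 (WBGene00009701) had signals of 6.31, 4.21 and 4.34 in TGQ, against 19.2, 11.3 and 13.1 in WT. The gene egg-4 (WBGene00020652) had signals of 8.35, 6.97 and 6.07 in TGQ, against 21.4, 13.9 and 15.2 in WT. For both genes the groups were separate, but the ratio of the lowest WT to the highest TGQ sample was smaller than for the eggshell genes. The log2 change was -1.37 for egg-3 (SE 0.21, limma adjusted p = 0.000386) and -1.12 for egg-4 (SE 0.18, limma adjusted p = 0.000525). The close paralog of egg-4, egg-5, was also called lower, with a signal of 5.71 ± 1.28 in TGQ and 17.6 ± 4.98 in WT (SD, n = 3 each) and a log2 change of -1.46. EGG-4 and EGG-5 are nearly identical, so reads may have been divided between these 2 genes and their separate values are uncertain.

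The yolk receptor gene rme-2 (WBGene00004374) encodes a member of the low-density lipoprotein receptor family that takes vitellogenin yolk proteins into the oocyte. Its signals were 15.7, 11.2 and 11.5 in TGQ, against 59.6, 34.1 and 37.8 in WT. The groups did not overlap, although WT replicate 1 stood well above the other 2 WT samples. The log2 change of rme-2 was -1.68 (SE 0.21, limma adjusted p = 0.000151), with a 95% interval from -2.15 to -1.20. The intervals of the other genes ran from -3.22 to -2.22 for perm-2, the largest change, and from -1.52 to -0.72 for egg-4, the smallest.

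**Figure D2:**
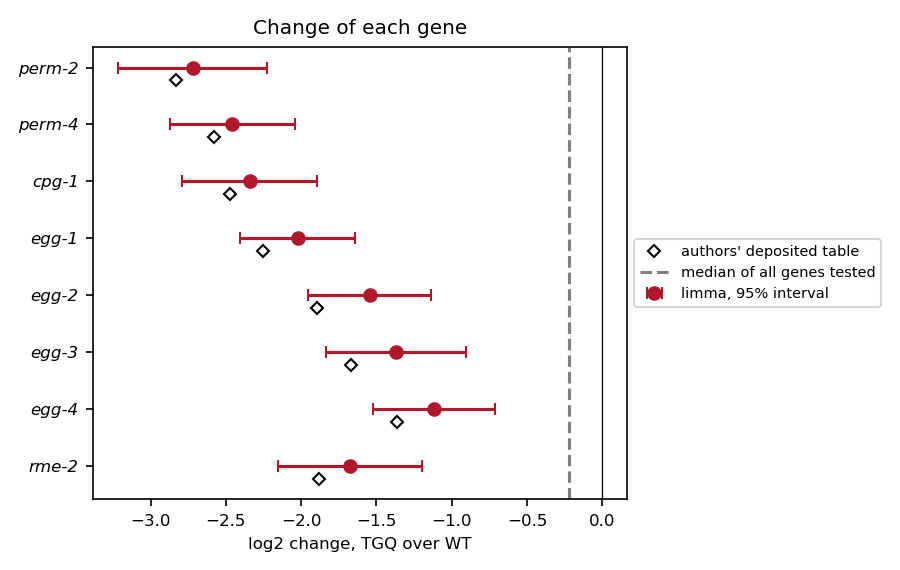
Log2 change of each gene, TGQ over WT (horizontal axis), from limma on log2(signal + 1) with its 95% interval (red) and from the authors' deposited table (open diamonds), with the median of all genes tested as a dashed line. The limma changes run from -2.72 for perm-2 to -1.12 for egg-4, and all 8 intervals lie below the dashed line at -0.22.

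In the authors' deposited table, made with a scaling and test that are not named there, the log2 changes were -2.83 for perm-2, -2.58 for perm-4, -2.47 for cpg-1 and -2.25 for egg-1. The authors' deposited table gave -1.90 for egg-2, -1.88 for rme-2, -1.67 for egg-3 and -1.36 for egg-4. The authors' deposited table has adjusted p-values for these genes from 3.64e-53 for egg-1 to 7.01e-17 for egg-4. The same 4 genes therefore led the falls in both sets of values. The order of rme-2 and egg-2 differed, with rme-2 falling further by limma and egg-2 by the authors' deposited table. All changes were larger in the authors' deposited table. Its log2 values had a median difference of -0.131 from the log2 ratio of group means, so its scaling differed. The 1 added to the signal in the limma fit also lowers the change of genes with low signal, such as egg-2, egg-3 and egg-4.

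**Figure D3:**
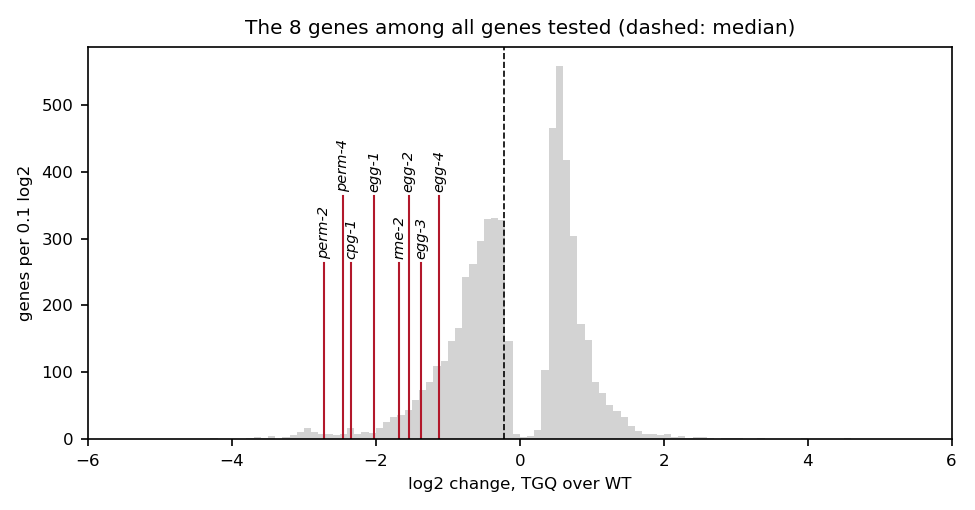
Number of genes (vertical axis) by log2 change, TGQ over WT (horizontal axis, bins of 0.1), for the 5540 genes tested, with the 8 genes as red lines and the median of -0.22 dashed. The 8 genes lie in the lower part of the falling genes, and few genes of this table, selected for a difference, have changes near 0.

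The sizes of the changes were compared between the 8 genes. The log2 ratio of each pair of genes, with 1 added to each signal, was taken within every sample and compared between groups. The added 1 shifts ratios that involve genes with low signal, such as egg-2, egg-3 and egg-4. Of 28 pairs, 24 had ratios that did not overlap between TGQ and WT. Over all pairs of genes called lower in the table, the share was 49.9%. With 3 samples against 3, the exact two-sided permutation test can give no p below 0.1. That value was reached by these 24 pairs (adjusted p = 0.117 over the 28 pairs), so the differences are given as a description. The log2 ratio of perm-2 to rme-2 was 1.88 ± 0.29 in TGQ and 2.92 ± 0.28 in WT (SD, n = 3 each), and that of cpg-1 to egg-4 was 1.70 ± 0.24 in TGQ and 2.92 ± 0.11 in WT. In both pairs the eggshell gene was further down in TGQ than its partner. The paralogs egg-1 and egg-2 kept a steady ratio within each group, 1.19 ± 0.03 in TGQ and 1.66 ± 0.04 in WT, and egg-1 was the further down. The neighbours perm-2 and perm-4 had log2 ratios of 0.02 ± 0.18 in TGQ and 0.29 ± 0.08 in WT, ranging from -0.18 to 0.16 in TGQ and from 0.19 to 0.34 in WT. Ratios overlapped between the groups for perm-4 with cpg-1, perm-4 with egg-1, cpg-1 with egg-1, and egg-2 with rme-2, which does not show that these pairs changed alike.

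Within each group the 8 genes shared a high replicate 1, while the order of replicates 2 and 3 differed between genes. Replicate 1 had the highest value of its group for all 8 genes in TGQ and for all 8 in WT. On the log2 scale, replicate 1 exceeded the mean of the other 2 samples by a median of 0.45 over the 8 genes in TGQ (0.21 to 0.81) and 0.54 in WT (0.25 to 0.72). Over all genes tested the same median was 0.09 in TGQ and 0.21 in WT, and replicate 1 was the highest for 54.7% of genes in TGQ and 68.1% in WT. Without both samples numbered 1, all 8 genes were still called lower, with a median log2 change of -1.75. Leaving out WT replicate 1 alone gave the smallest median of the settings tried, -1.64, against -0.13 for all genes tested in that setting.

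**Figure D4:**
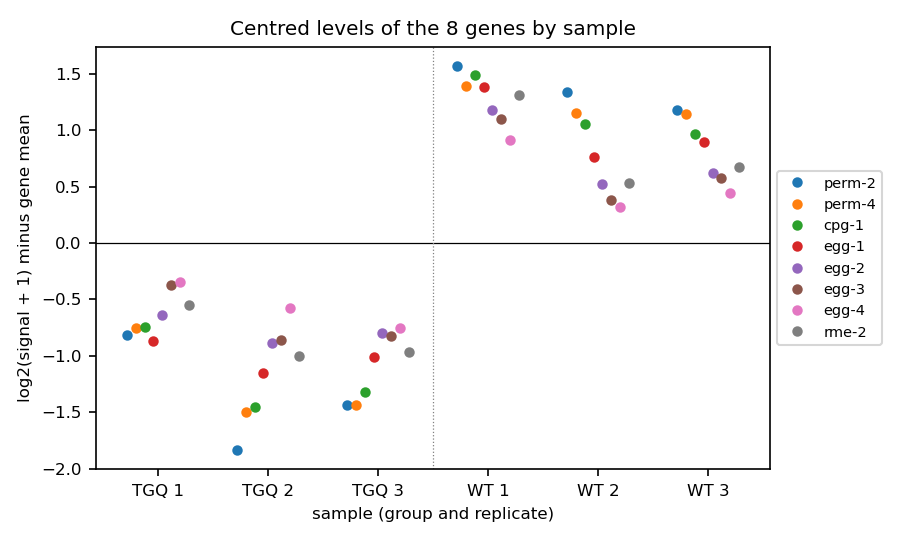
Log2(signal + 1) of each of the 8 genes minus its mean over the 6 samples (vertical axis), by sample (horizontal axis), with 1 colour per gene. All 8 genes lie below 0 in the 3 TGQ samples and above 0 in the 3 WT samples, and replicate 1 is the highest sample of each group for every gene.

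The 8 genes lie on chromosomes I to IV in the WBcel235 assembly of Ensembl release 115. Which build the authors used is not stated in the labels. The genes perm-4, on the minus strand of chromosome IV at 1121494 to 1125107, and perm-2, on the plus strand at 1126790 to 1128865, are neighbours that point away from each other. Between them lie 1682 bases with 0 annotated genes. The yolk receptor gene rme-2 is on the same chromosome at 5470026 to 5473174. Chromosome III carries cpg-1 at 4489359 to 4491392, egg-1 at 5728180 to 5730159 and egg-2 at 7058527 to 7060583. The gene egg-3 is on chromosome II at 10882408 to 10884441, and egg-4 is on chromosome I at 3932210 to 3934813. Exons of 3 of the genes overlap a gene on the other strand, by 25 bases with C44B12.6 for perm-2, by 42 bases with B0244.9 for egg-1 and by 21 bases with lurp-1 for egg-3. These overlaps are short against exon lengths of 736 to 1795 bases in the 3 genes. Of the 3 neighbours, B0244.9 was in the table, with 6.91 ± 0.75 in TGQ and 10.9 ± 1.29 in WT (SD, n = 3 each), a log2 change of -0.59.

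Other genes of eggshell synthesis and the permeability barrier mostly fell as well. Of 21 listed genes, 13 were tested, 9 were called lower and 2 were called higher (median -0.68 on the log2 scale, against -0.22 for all genes tested). The shares over all genes tested were 44.6% lower and 45.6% higher. The proteoglycan gene cpg-2, a partner of cpg-1 in the same layer, had 35.2 ± 9.96 in TGQ and 175 ± 35.9 in WT (SD, n = 3 each), a log2 change of -2.30. The gene cpg-3, of another chondroitin proteoglycan, had a log2 change of -1.95, and cbd-1, of a chitin-binding protein needed to form the vitelline layer, one of -1.84. Falls were smaller for gna-2, an enzyme of the sugar precursor of chitin, with -1.16, and perm-1, with -1.13. The chitin synthase gene chs-1 had signals of 7.35, 5.33 and 4.51 in TGQ, against 19, 8.57 and 10.6 in WT, a log2 change of -0.98 (limma adjusted p = 0.00707). The calls for the chondroitin synthesis genes sqv-1 and sqv-7 were lost when single samples were left out (largest adjusted p = 0.098 and 0.0628, limma). The 2 genes that rose were fasn-1 and pod-2, of fatty acid synthase and acetyl-CoA carboxylase, which make fatty acids in the body at large and are needed for the permeability barrier. The signal of fasn-1 was 53.5 ± 8.37 in TGQ and 24 ± 5.74 in WT, and that of pod-2 was 76.7 ± 9.91 in TGQ and 46.7 ± 13 in WT.

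Among other genes of egg activation, 7 of 15 were tested under their listed names. Of these, 6 were called lower, where 44.6% of all genes tested were (median log2 change -0.60). The 6 include cav-1, which met the signal filter only through its WT samples, so its call adds no support. Without TGQ replicate 2 or without TGQ replicate 3, 4 were called lower. The largest change was that of egg-5, given above, and those called lower also included mei-2 and mei-1, of the microtubule-severing complex of the meiotic spindle, whose subunit MEI-1 is marked by MBK-2 for degradation, with log2 changes of -1.23 and -0.54. The calls for mei-1 and for the cell cycle gene cks-1 (log2 change -0.30) were both lost in these settings, and that for cks-1 also without WT replicate 3 (largest adjusted p over the alternatives 0.0604 for mei-1 and 0.0782 for cks-1, limma). The kinase gene mbk-2 itself had signals of 46.9 ± 3.91 in TGQ and 54.7 ± 11.6 in WT and did not pass the test (log2 change -0.20, limma adjusted p = 0.221). It did so without WT replicate 2, with a log2 change of -0.34. The caveolin gene cav-1 had low signals, 0.61, 0.40 and 0.59 in TGQ, against 1.98, 2.26 and 1.06 in WT.

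The yolk proteins that RME-2 takes up are made in the intestine and not in the oocyte. All 6 vitellogenin genes were called lower, where 44.6% of all genes tested were (median log2 change -2.58). Their summed signal was 323 to 633 in TGQ samples and 1852 to 3617 in WT samples. The gene vit-2 had 150.8, 76 and 90.9 in TGQ, against 943, 465 and 545 in WT, a log2 change of -2.60, and vit-1 had the smallest of the 6 changes, -1.88. The receptor gene rme-2 stood at -1.68. Genes of the endocytic machinery that RME-2 shares with other cargo were split. Of 17 listed genes, 7 were tested, 4 were called higher and 2 lower (median 0.49), where 45.6% of all genes tested were called higher and 44.6% lower. Those called higher were apa-2 and dpy-23, of the clathrin adaptor, with log2 changes of 0.85 and 0.57, rme-6, of an activator of RAB-5, with 0.78, and the dynamin gene dyn-1, with 0.49. Of those called lower, rab-7 lost its call in 9 of 13 alternatives, and the cathepsin L gene cpl-1, with a log2 change of -0.34, had one of 0.10 after quantile normalization.

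Regulators of oocyte maturation and oocyte RNA fell widely. Of 25 listed genes, 22 were tested, 20 fell and 2 rose by the test (median -1.21). The shares over all genes tested were 44.6% lower and 45.6% higher. Falls were largest for pos-1 and oma-2, of zinc finger proteins of oocytes and early embryos, with log2 changes of -2.18 and -2.16, and for puf-5, of an RNA-binding protein of oocytes, with -1.91. The germline translational repressor gene gld-1 had 86.2 ± 11.2 in TGQ and 174.5 ± 29.6 in WT (SD, n = 3 each), and its TGQ mean was 0.494 times its WT mean. The genes called higher were cdc-25.2, of a phosphatase that promotes oocyte maturation, with 0.55, and vab-1, of an Eph receptor that holds it back, with 0.47, of which vab-1 lost its call in 5 of 13 alternatives. Genes listed as sperm genes needed for fertilization were mostly outside the table. Of 13 listed genes, 4 were tested, and all 4 were called lower, where 44.6% of all genes tested were (median -0.49). The largest change among these was that of spe-11, of a factor that sperm bring into the egg and that the eggshell needs, with 17.7 ± 3.43 in TGQ and 35.4 ± 7.88 in WT, a log2 change of -0.96, and the call of spe-41 was lost in 3 of 13 alternatives.

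**Figure D5:**
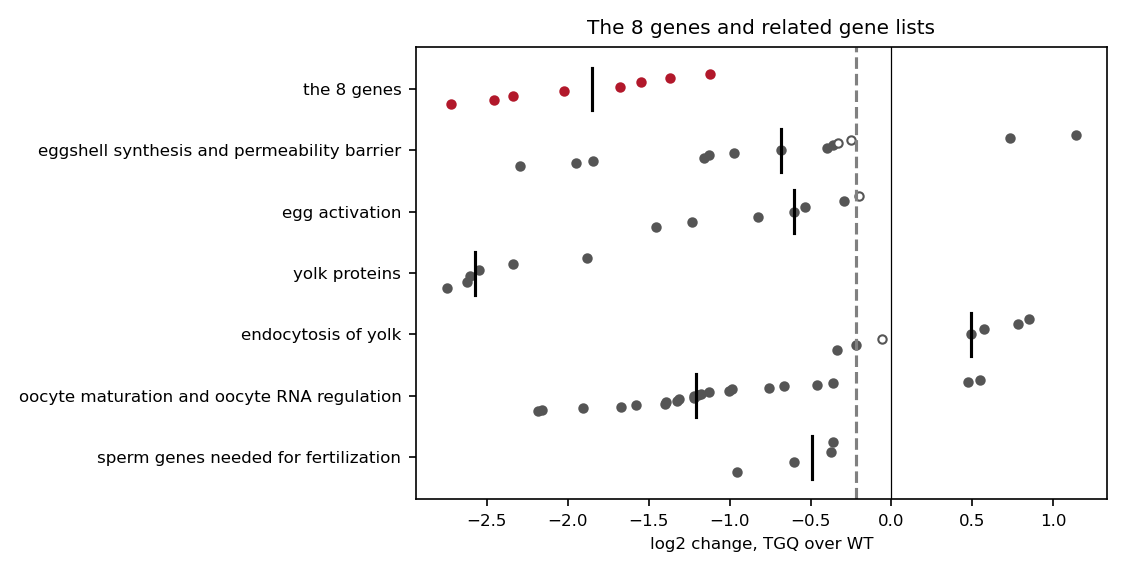
Log2 change of the 8 genes (red) and of the tested genes of 6 related lists (grey), TGQ over WT (horizontal axis); open symbols did not pass the test, black bars give each list's median and the dashed line is the median of all genes tested. The median is -1.85 for the 8 genes, -2.58 for the yolk proteins and 0.49 for endocytosis genes.

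Markers of other cell types moved in both directions in the same samples. Over all genes tested, 44.6% were called lower and 45.6% higher. Of the listed sperm markers 11 of 12 were tested and all 11 were called lower, with a summed signal of 1019 to 1164 in TGQ and 2929 to 3398 in WT. Of the general germline markers 6 of 12 were tested and 5 were called lower (161 to 193 in TGQ and 210 to 302 in WT), and of the markers of the gonadal sheath and spermatheca 5 of 9 were tested, with 4 lower and 1 higher (68.4 to 78.6 in TGQ and 142.03 to 179 in WT). Body markers that were tested were mostly higher, but many of the listed ones were outside the table. Of 12 neuron markers 3 were tested, and all 3 were called higher (49.9 to 51.6 in TGQ and 27.8 to 36.3 in WT). Of 10 muscle markers 2 were tested, and both were called higher (98.7 to 131 in TGQ and 52.2 to 94.4 in WT). Of 10 hypodermis markers 7 were tested, and 6 were called higher. The summed hypodermis signal was nevertheless lower, 586 to 732 in TGQ and 946 to 1084 in WT. The adult cuticle collagen gene col-19, which is switched on around the last moult, was the lower one of these, with 131, 70.2 and 91.1 in TGQ, against 895, 741 and 680 in WT. Of 10 intestine markers 2 were tested, with 1 higher and 1 lower (651 to 777 in TGQ and 677 to 790 in WT). None of the markers in the table was listed at 0 in a sample, and markers outside it are not analysed here. The part of gamete number, developmental timing and these other cell types in the fall of the 8 genes was not tested.

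The genes most like the 8 in their pattern over the 6 samples were gln-5, vit-1, cpg-3, sip-1, puf-5, D1086.10, cbd-1 and C39B5.5. Likeness was the root mean square difference in centred log2(signal + 1) from the mean profile of the 8 genes, among 4206 other genes tested with a mean signal of at least 5. It ran from 0.04 for gln-5 to 0.09 for C39B5.5. The 8 genes themselves lay 0.11 (egg-1) to 0.44 (perm-2) from their mean profile, and 391 other genes lay no further from it than perm-2. The glutamine synthetase gene gln-5 had signals of 7.81, 4.96 and 5.62 in TGQ, against 34.4, 23.2 and 23.4 in WT. The small heat shock protein gene sip-1 had 136, 87.2 and 98.9 in TGQ, against 481, 381 and 355 in WT. In both genes replicate 1 was the highest sample of each group, a feature of the mean profile by which they were selected.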

How the data were processed

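RNA of whole animals was measured in 3 TGQ and 3 WT samples, grouped by their titles. Per the submitters' processing notes, the tools were TopHat2, TopHat and RSEM, with no version or role. The build, annotation and differential test were not given in the sources used here. The authors deposited an expression signal per gene and sample with 2 decimals, whose unit the file header does not name, and a mean signal per group. The authors also deposited a fold change (the ratio of TGQ to WT), the log2 of that fold change, and raw and adjusted p-values. Against the log2 ratio of group means, the deposited log2 values had a median difference of -0.131 (3716 genes whose group means both reach 5), so another scaling lay behind the authors' test.

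The members, gene lists and tests were chosen with earlier results of these data known. Since the table holds no counts, limma 3.58.1 (R 4.3.3) was fitted to log2(signal + 1) of all 5540 genes with a signal of at least 1 in at least 3 samples. Group was the single term, with trended and robust eBayes. Fold changes on this scale understate those of low genes. Ratios between genes, taken of signal + 1, used exact permutation tests (SciPy 1.17.1). The rule for named genes took the 8 members, any called gene of a related list, at most 6 in full by largest change, and the 8 genes of most similar profile. The uncalled mbk-2, the antisense neighbours, the marker col-19 and genes sharing an annotation were named after their values were seen. The listed symbols syn-4, spe-13, fer-14, spe-28 and opt-2 matched no annotated gene and were not analysed. Genes now known by other names may still be in the table, so the counts per list cover matched symbols only. No sequences were used here.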

Additional observations from a re-analysis of the deposited data

How the results depend on the processing

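All 8 genes remained called lower in each of the 13 alternatives: a pseudocount of 0.1, no filter, the authors' scaling, quantile normalization, eBayes without trend and robust options, the replicate block, each sample left out, and both samples numbered 1 left out, the last chosen after seeing the data. The log2 change of perm-2 ran from -2.99 to -2.49 and that of egg-4 from -1.24 to -0.94, and the largest adjusted p was 0.0028, for egg-4 (limma). The median of all genes tested moved from -0.22 to -0.35 with the authors' scaling and to -0.10 after quantile normalization, and the median of the 8 genes to -1.97 and -1.76. Genes called in all numbered 4998, and between 4445 and 4800 with 1 sample left out. Pairs with separate ratios numbered 23 to 28. Of the endocytosis genes, 2 were called lower, but 1 with eBayes without trend and robust options, 1 in each fit with 1 sample left out, 1 without both samples numbered 1 and 0 after quantile normalization. Of the oocyte regulators, 2 were called higher, but 1 with the authors' scaling and 1 to 2 with 1 sample left out. The cause was not tested. With the replicate block 5137 genes were called and 8 of the 8 genes. The numbers were not taken as pairs because the labels state no pairing. Deviations of same-numbered samples correlated at 0.25, -0.01 and 0.16 over genes, and those of differently numbered samples at -0.23 to 0.17. These values do not decide whether the samples were paired. The depth is unknown, and 3 samples a group limit exact tests to p = 0.1.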

Other observations

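Genes that share an annotation of the deposited table with the 8 genes were examined after the values had been seen, so their counts are a description. Of all genes tested, 44.6% were called lower and 45.6% higher. The term eggshell formation was attached to 13 genes, 5 of them among the 8, and the other 8 were all called lower (median log2 change -1.07). Among these, cpg-2, cbd-1, egg-5, gna-2, chs-1 and spe-11 were already counted in the lists above, so this count is not separate support. The remaining genes are the cytochrome P450 genes cyp-31A2 and cyp-31A3, which are needed for the permeability barrier, with log2 changes of -0.78 and -0.61. They are close paralogs, and their separate values are uncertain.

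Domains were less uniform, and again the shares over all genes tested were 44.6% lower and 45.6% higher. The chitin-binding domain of cpg-1 was listed for 7 other genes, and all 7 were called lower (median -2.13), among them ule-1, whose product is a secreted protein of the uterus, with 2.47 ± 1.08 in TGQ and 23.02 ± 4.3 in WT (SD, n = 3 each). These 7 also include cpg-2 and cbd-1, already counted above. The low-density lipoprotein receptor class A domain of egg-1, egg-2 and rme-2 was listed for 10 other genes, of which 9 were tested. Of these, 7 were called higher and 1 lower (median 0.53), and the largest rises were those of F44E2.4 (log2 change 1.40), mua-3, of a protein that attaches muscle to the cuticle (1.39), and lrp-1, of a receptor of the epidermis (1.01). The protein tyrosine phosphatase domain of egg-3 and egg-4 was listed for 51 other tested genes, of which 41 were called lower and 5 higher (median -0.63). The 41 include egg-5, already counted above. Of the 5 called higher, ptp-4 met the signal filter only through its TGQ samples, so its call adds no support.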
